A study of Homo sapiens with 2 samples.

Results

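The miR-181 family was taken from the deposited table of small RNA counts as every locus named miR-181a, miR-181b, miR-181c or miR-181d, whatever its arm or copy suffix. A locus is one place in the genome at which the authors counted reads. The rule found 6 of the 947 loci, under 4 names, with 2 loci each on chromosomes 1, 9 and 19. The cells were MCF10A, a non-tumorigenic human breast epithelial line. Untreated cells (3 libraries) were compared with cells given withaferin A, a steroidal lactone made by Withania somnifera, at 2 µM for 24 h (3 libraries). Nothing in the labels ties the 3 libraries of a group to separate cultures, so the p-values speak only of how these libraries vary, perhaps for technical reasons. The labels' protocols list the library kits, and the QIAseq kit goes with the untreated libraries and the NEBNext kit with the withaferin A libraries when their order is followed. Kit and treatment then cannot be told apart.

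MicroRNAs (miRNAs) are short RNAs cut from hairpin precursors. They guide the silencing complex to messenger RNAs that pair with the seed, bases 2 to 8 of the miRNA. The miR-181 family is best known for setting the strength of antigen receptor signalling in developing T cells, and in breast cells miR-181a is known as a miRNA raised by TGF-β. Its members are made as pairs from 3 clusters that arose by duplication, so near-identical RNAs come from different chromosomes. The 5p arms are shown here because a read of the mature RNA can be shared between loci with the same letters. Seeds are in capitals, and the sequences are RefSeq's on GRCh38.p14, 5′ to 3′.

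hsa-miR-181a-5p: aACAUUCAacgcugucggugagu

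hsa-miR-181b-5p: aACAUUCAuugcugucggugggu

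hsa-miR-181c-5p: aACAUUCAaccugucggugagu

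hsa-miR-181d-5p: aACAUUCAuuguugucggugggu

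All 4 carried the same seed, and of 2370 mature miRNA names in the RefSeq table only 1 other, miR-4262, carried it too. No locus of the count table was named miR-4262. With positions counted from 1 at the 5′ end, miR-181a-5p and miR-181b-5p differed at 3 positions (A9U, C10U, A21G). miR-181d-5p differed from miR-181b-5p by 1 substitution (C12U). miR-181c-5p, of 22 bases, was miR-181a-5p of 23 bases without the base at position 11. The family thus held an a/c pair and a b/d pair, each split between chromosome 19 and the other clusters.

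On chromosome 1 the minus strand holds MIR181A1, with miR-181a-5p at chr1:198859108-198859130, and MIR181B1, with miR-181b-5p at chr1:198858925-198858947. The hairpins lie 61 bases apart in an intron of the long non-coding host gene MIR181A1HG. On chromosome 9 the plus strand holds MIR181A2 (miR-181a-5p at chr9:124692480-124692502) and MIR181B2 (miR-181b-5p at chr9:124693725-124693747), 1158 bases apart. They lie in an intron of the non-coding MIR181A2HG and, on the opposite strand, within introns of NR6A1, a gene for an orphan nuclear receptor. On chromosome 19 the plus strand holds MIR181C (chr19:13874725-13874746 for the 5p arm) and MIR181D (chr19:13874910-13874932), 66 bases apart in an intron of 2 NANOS3 transcripts. The mature sequences of miR-181a-5p and of miR-181b-5p are the same at both of their copies. Host genes and introns are those of GENCODE release 29 on GRCh38.

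Depth decided what could be seen after withaferin A. Untreated libraries held 1855838 to 2615684 counts and withaferin A libraries 340 to 430, 1188 in all. With a count of 0 among 1188, a share of up to 3 counts, 0.253% or 2525 CPM (counts scaled to a common library total), was allowed. Those 3 counts over the group are called the floor below. Floors and intervals cover counting error only. They take each count as a separate read, and so do the predicted counts and folds below. The 2 let-7a-5p loci had 232 (chromosome 11) and 223 (chromosome 22) withaferin A counts, so a read may be counted at both. How many separate reads the 1188 counts hold is not known, and with fewer the floor would be a larger share. Of the 5 epithelial marker miRNAs, all had a locus, and together they took 6.93% to 7.80% of untreated counts. After withaferin A they took 28.8% to 37.2%, all of it miR-205-5p, and the other 4 were at 0. Of those 4, miR-200c-5p had an untreated mean of 6153 CPM, above the floor. The means of miR-141-5p, miR-203a-5p and miR-200b-5p, 142 to 266 CPM, lay below it. Markers of blood, of mesenchyme, muscle and endothelium, and of liver took at most 0.0111%, 0.00280% and 0.00778% of an untreated library. None of these 13 markers, 8 of them with a locus in the table, had a count after withaferin A. The untreated shares of these other lists lie far below the floor, so their zeros say nothing about cell type.

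In untreated cells the family was carried by miR-181a-5p and miR-181b-5p, and the chromosome 19 members were scarce. The locus named hsa-miR-181a-5p, counted at its chromosome 9 copy, had 13263, 7849 and 9989 counts in replicates 1, 2 and 3. Those counts were 5159, 3001 and 5382 CPM, a mean of 4514 ± 1315 CPM (SD, n = 3), and the locus ranked 33 of 947 by mean share. Replicates 1 and 3 lay close together and replicate 2 below them. The locus named hsa-miR-181b-5p had, at its chromosome 9 copy, 5457, 4693 and 3610 counts, or 2122, 1794 and 1945 CPM (mean 1954 ± 164, SD, n = 3). Its 3 libraries lay near each other, and its highest value was below the lowest of miR-181a-5p. The mature RNAs are 22 or 23 bases long and the hairpins 89 to 137; whether a locus was counted over its 5p arm or its whole hairpin is not given in the sources used here.

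The locus named hsa-miR-181d-5p, the b-like member on chromosome 19, had 83, 64 and 45 counts, or 32.3, 24.5 and 24.2 CPM (mean 27.0 ± 4.58, SD, n = 3). That was 1.38% ± 0.138 of the miR-181b-5p count, from which it differs by a single base. miR-181c-5p had 12, 4 and 11 counts, or 4.67, 1.53 and 5.93 CPM (mean 4.04 ± 2.26, SD, n = 3). That was 0.0839% ± 0.0301 of the miR-181a-5p count. The order a, b, d, c held in each untreated library with no overlap between neighbours. How reads with a base error were assigned is not given in the sources used here, so the part of such reads in the miR-181c-5p and miR-181d-5p counts was not tested.

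**Figure D1:**
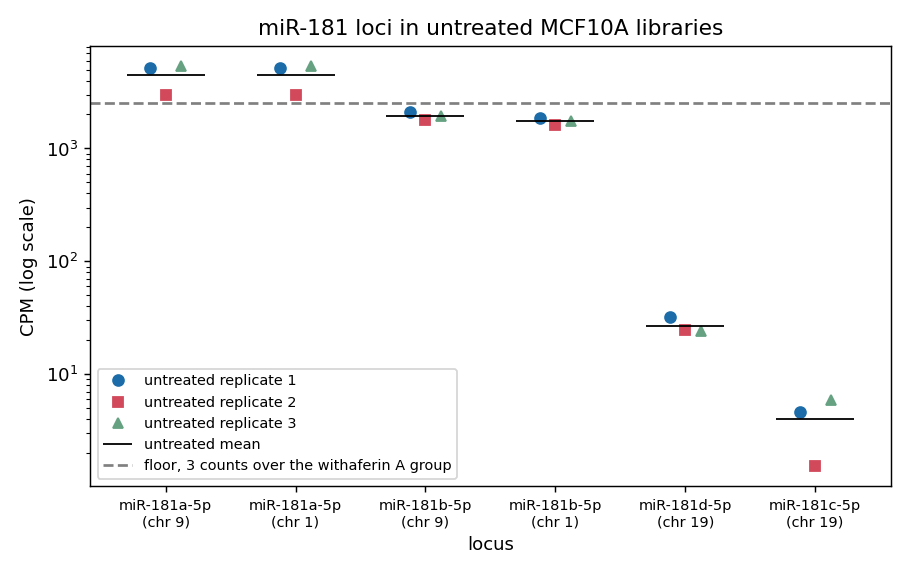
CPM (log scale) at the 6 miR-181 loci in the 3 untreated libraries, with black bars at the mean and the dashed line at the floor of 2525 CPM. Both miR-181a-5p copies lie above the floor in every library, the miR-181b-5p copies below it (1600 to 2122 CPM), and the chromosome 19 loci at 1.53 to 32.3 CPM.

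The clusters were compared as sums of their 2 loci. The chromosome 1 cluster took 0.702%, 0.460% and 0.713% of counts in untreated replicates 1, 2 and 3, a mean of 0.625% ± 0.143 (SD, n = 3). The chromosome 9 cluster took 0.728%, 0.479% and 0.733% (mean 0.647% ± 0.145). These sums are not independent, because a read of either mature RNA can be placed at both copies, so they do not say which cluster made the RNA. The chromosome 19 cluster took 0.00369%, 0.00260% and 0.00302% (mean 0.00310% ± 0.000553), and its letters differ from those of the other clusters. The libraries of the chromosome 19 cluster and of the other clusters did not overlap. About 38 kb from MIR181C lie the only other miRNA hairpins within 100 kb of any miR-181 hairpin, MIR23A, MIR27A and MIR24-2. Their loci on chromosome 19 were at far higher untreated levels than miR-181c-5p or miR-181d-5p, from 2786 ± 300.3 CPM for miR-23a-5p to 10322 ± 323.0 CPM for miR-24-3p (SD, n = 3). The miR-24-2-5p locus there had the same values as the miR-24-1-5p locus on chromosome 9. The miR-24 counts therefore may not come from chromosome 19 alone.

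The gene copies were not counted alike in both names. At miR-181a-5p the chromosome 1 copy had 13263, 7852 and 9986 counts, so the copies differed by 0, 3 and 3 counts. At miR-181b-5p the chromosome 1 copy had 4784, 4186 and 3253 counts, below the chromosome 9 copy by 673, 507 and 357. The chromosome 9 copy was thus 14.1%, 12.1% and 11.0% higher (mean 12.4% ± 1.56, SD, n = 3), in 3 of 3 libraries. Of 11 names with several loci and a mean of at least 1000 untreated counts at each, this was the largest mean difference. miR-378d came next (mean 9.52% ± 4.53, SD, n = 3), and in replicate 3 its difference, 14.7%, was the larger. In 7 of the 11 the copies differed by under 1%.

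The sources used here do not give the counting rule, and no miR-181 locus was named for a 3p arm, although the 3p arms differ between copies. Those of miR-181b are shown with the differing base in capitals (A9U, counted from the 5′ end). The chromosome 9 form is also 1 base shorter, at 20 against 21 bases.

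miR-181b-3p (MIR181B1, chr1:198858887-198858907): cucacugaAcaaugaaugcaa

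miR-181b-2-3p (MIR181B2, chr9:124693763-124693782): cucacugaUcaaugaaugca

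The 3p arms of the miR-181a copies also differ, at 3 positions (U5C, C6U, U16C). Reads that fit only 1 copy could therefore exist for both names, while counts set the copies apart only at miR-181b-5p. Whether such reads entered the counts was not tested.

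**Figure D2:**
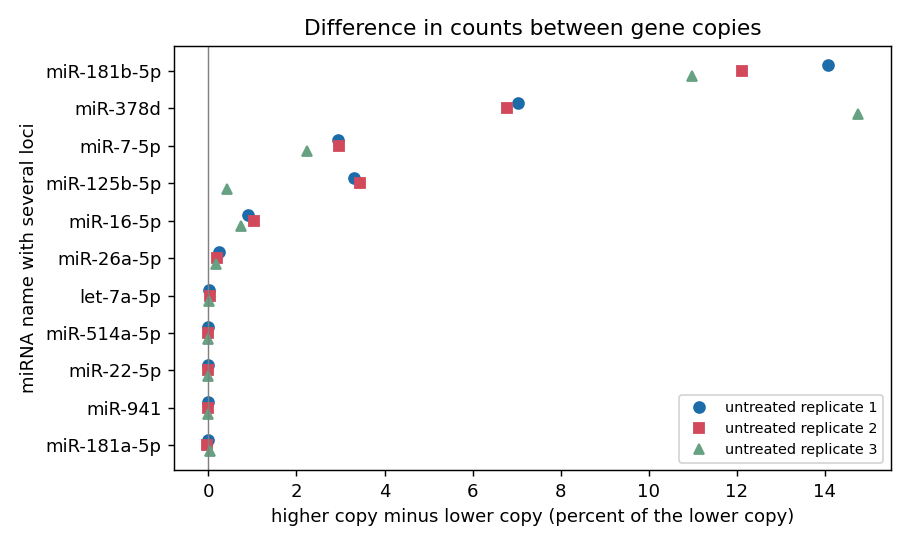
Difference in counts between the highest and the lowest gene copy, as percent of the lower copy, for the 11 miRNA names with several loci of at least 1000 mean untreated counts. Points are untreated replicates; miR-181b-5p lies at 11.0% to 14.1% and miR-181a-5p at 0 or within 3 counts of it.

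The balance of miR-181a-5p and miR-181b-5p varied between untreated libraries. At the chromosome 1 copies there were 2.77, 1.88 and 3.07 miR-181a-5p counts per miR-181b-5p count in replicates 1, 2 and 3 (mean 2.57 ± 0.622, SD, n = 3). At the chromosome 9 copies the ratio was 2.43, 1.67 and 2.77 (mean 2.29 ± 0.561). Replicate 2 was the lowest at both. A ratio within a library does not depend on library scaling. miR-181a-5p made up 70.5%, 62.2% and 73.2% of the family's counts, with 1 locus per name, and miR-181b-5p took its largest part, 37.2%, in replicate 2 and its smallest, 26.4%, in replicate 3. The highest library of miR-181a-5p (chromosome 9) was 1.79-fold its lowest in CPM, and 23 of the 108 loci with at least 1000 mean untreated counts had a wider range. For miR-181b-5p (chromosome 9) the highest was 1.18-fold the lowest, and 84 of the 108 had a wider range. The median over the 108 loci was 1.37-fold.

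**Figure D3:**
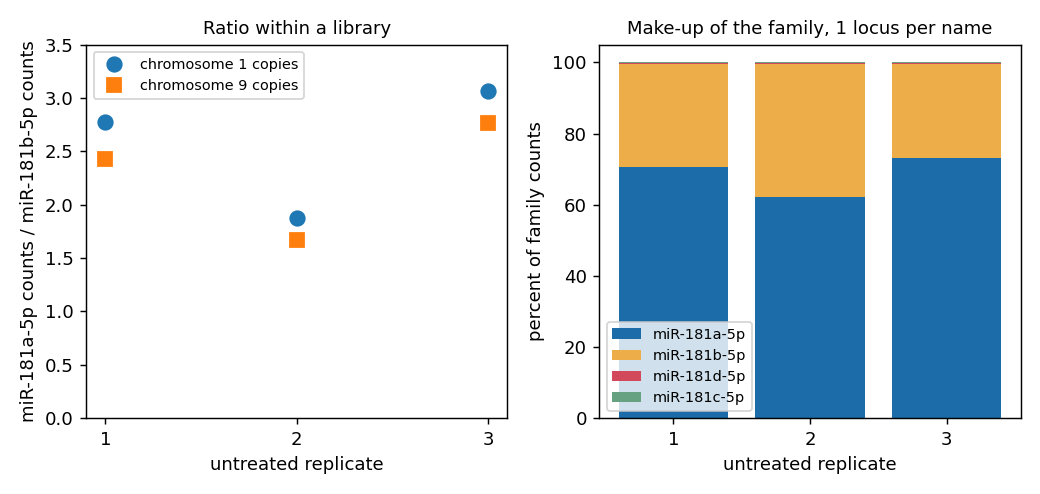
Left, miR-181a-5p counts per miR-181b-5p count in each untreated replicate at the chromosome 1 and chromosome 9 copies; right, the percent of family counts of each member, with 1 locus per name. Replicate 2 has the lowest ratio (1.88 and 1.67) and the lowest miR-181a-5p part (62.2%).

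By the distance of log2(CPM + 1) over the 6 libraries, the 5 miRNA names most like miR-181a-5p were miR-30e-5p, miR-29a-5p, miR-17-5p, miR-24-1-5p and miR-24-2-5p. miR-30e-5p, the nearest, had 3868, 2446 and 5241 CPM in untreated replicates 1, 2 and 3, and miR-29a-5p had 6460, 3858 and 6311 CPM. Replicate 2 was the lowest in both, and replicate 3 in the 2 miR-24 names, which had identical values. All 5 were at 0 counts after withaferin A, and the measure of likeness used both the untreated pattern and these zeros.

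After withaferin A no miR-181 locus had a count in any library. The family took 0.732%, 0.482% and 0.736% of untreated counts, with 1 locus per name (mean 0.650% ± 0.145, SD, n = 3), and 0 of 1188 counts after withaferin A. The groups did not overlap, which was so for 72.7% of all 947 loci in that direction. The difference of −0.650 percentage points had an exact two-sided permutation p = 0.1 (n = 3 against 3), the smallest this design allows. At the untreated share, 7.72 family counts would be found among 1188, 2.21 to 2.79 in each library. The family's untreated mean was 2.57-fold the floor of 3 counts over the group. The exact two-sided 95% upper limit for 0 of 1188 was 0.310%, which the family's share exceeded in each untreated library. In bulk libraries a lower level in each cell and fewer cells holding the RNA cannot be told apart.

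miR-181a-5p was the only name above the floor. Its untreated share predicted 5.36 counts against 0 found, and its untreated mean was 1.79-fold the floor. In untreated replicate 2 its share was 0.300%, below the exact upper limit of 0.310%, so 1.79-fold is not a secure minimum. For miR-181b-5p 2.32 counts were predicted at the chromosome 9 copy and 2.06 at the chromosome 1 copy, under the 3 counts of the floor, so no fold can be given. For miR-181d-5p 0.0321 and for miR-181c-5p 0.0048 counts were predicted, so a change in either was not detectable at this depth. Of the 33 loci with an untreated mean at or above that of miR-181a-5p, itself among them, 13 were at 0 after withaferin A and 20 had a count.

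**Figure D4:**
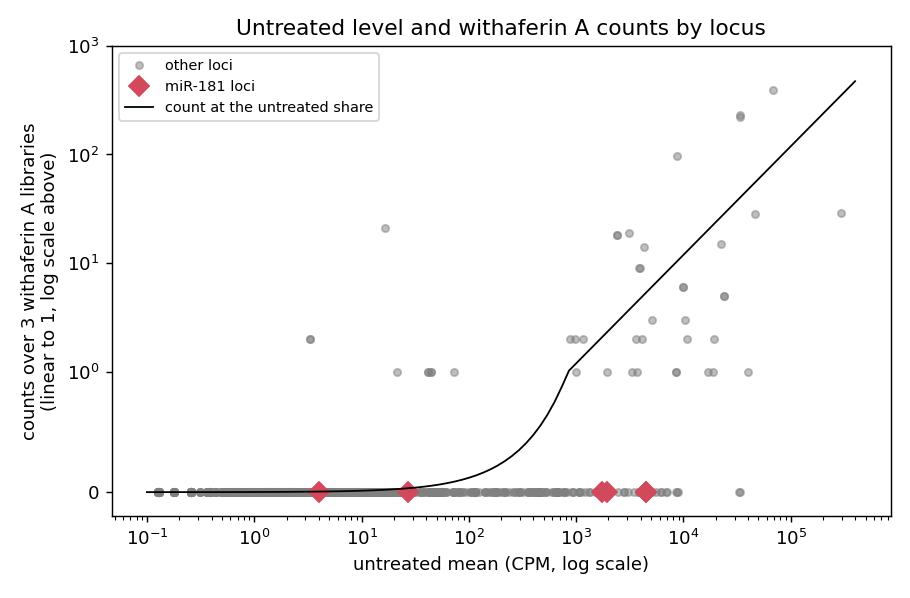
Counts over the 3 withaferin A libraries (linear to 1, log scale above) against the untreated mean in CPM (log scale) for each locus with an untreated count. The line is the count that the untreated share predicts among 1188; all 6 miR-181 loci lie at 0, as do 13 of the 33 loci at least as abundant as miR-181a-5p.

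Few counts were left for other miRNAs. The 4 loci named let-7a-5p, let-7c-5p and miR-205-5p held 14.4% ± 1.33 of the untreated libraries and 79.2% ± 6.83 of the withaferin A libraries (SD, n = 3), which left 241 of the 1188 counts. Of untreated counts outside those 4 loci the family took 0.758% ± 0.162, so 1.83 counts were predicted among 241 and 0 were found. Here 3 counts are 1.24%, above the untreated share, so no fall of the family relative to the remaining miRNAs can be shown. For miR-181a-5p alone 1.27 counts were predicted. This comparison was chosen after seeing the data.

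**Figure D5:**
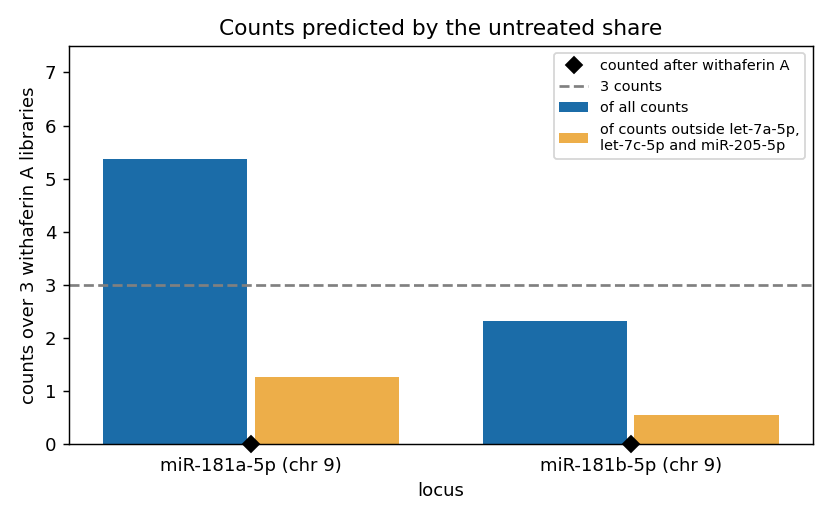
Counts over the 3 withaferin A libraries that the untreated share predicts for miR-181a-5p and miR-181b-5p, among all 1188 counts (5.36 and 2.32) and among the 241 outside let-7a-5p, let-7c-5p and miR-205-5p (1.27 and 0.550). Diamonds mark the 0 counts found and the dashed line 3 counts.

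In edgeR's quasi-likelihood test over 303 loci, with trimmed mean of M values (TMM) scaling, both copies of miR-181a-5p and both of miR-181b-5p were called lower, which is 4 of the 5 family loci tested and 2 names. All 5 had 0 withaferin A counts, so they passed the filter on low counts through the untreated libraries alone. In edgeR they could then only be fitted lower, so the direction of these calls is no result. Over all loci tested, 16.8% were called lower. The family's median fitted log2 fold change was −14.16, and that of the 303 loci was −8.94. Both differed between fits: the family and all-loci medians were −1.70 and 2.41 in limma-voom, and −4.04 and 4.87 in DESeq2. limma-voom had 303 loci too, but DESeq2 was fitted without the filter on 946 loci, 6 of the family. In edgeR without the filter the medians were −14.07 and −4.86, so the set of loci matters as well as the tool. The miR-181a-5p copy on chromosome 9 had a fitted log2 fold change of −15.36 ± 3.17 (SE, edgeR adjusted p = 0.0234), lower in 3 of 3 libraries. The miR-181b-5p copy there had −14.16 ± 3.08 (edgeR adjusted p = 0.0263), lower in 3 of 3 libraries, although 0 counts lie within what its untreated share allows. miR-181d-5p was not called (−7.99 ± 14.9, edgeR adjusted p = 0.792), and miR-181c-5p was not tested because its counts were too low. Against groups at 0 these fitted values depend on the tool and its prior count and are no measure of size: miR-181a-5p (chromosome 9) was at −5.32 in DESeq2 and −2.86 in limma-voom. With library totals in place of TMM, edgeR called 0 of the 5 loci (4 at an unadjusted p under 0.05; adjusted p = 0.127 for both miR-181a-5p copies, 0.203 and 0.252 for miR-181b-5p), where 3.63% of loci were called lower. DESeq2 called the same 4 lower, and 7.08% of its 946 loci. Some of the 946, miR-181c-5p and miR-181d-5p among them, got no adjusted p and could not be called. The share called lower among the others is therefore larger than 7.08%. With 1 locus per name, edgeR called miR-181a-5p (adjusted p = 0.0183) and not miR-181b-5p (adjusted p = 0.075), with 11.9% of loci called lower.

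In the authors' deposited normalized scores miR-181a-5p (chromosome 9) stood at 5982, 3629 and 6182 in untreated libraries and at 0 after withaferin A. In that score 1 count was worth 0.451 to 0.619 units in an untreated library and 698.0 to 780.1 in a withaferin A library. The untreated score of miR-181d-5p, 28 to 37, thus lay below the score of a single withaferin A count.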

How the data were processed

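The authors' count table holds whole numbers per locus for 6 libraries. They used cutadapt, Trim Galore, edgeR and genome build GRCh38.p7, per the submitters' processing notes; the aligner, locus finding and counting rule are not given in the sources used here. The second deposited table holds a normalized score, the count times 1 factor per library. Columns were assigned to groups by the names listed in each sample record, and all 947 loci entered library totals.

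The main test was edgeR's quasi-likelihood F test (version 4.0.16, R 4.3.3) with TMM scaling, on loci kept by filterByExpr at a minimum count of 10. A call was a Benjamini-Hochberg adjusted p below 0.05 over all loci tested. The SE is the absolute log2 fold change over the square root of F. DESeq2 1.42.0 and limma 3.58.1 served as alternatives. The fits to counts were also tried on simulated data, at the real depths and at equal depth. Only edgeR at equal depth had a pass mark, which says nothing about libraries as shallow as those of withaferin A. Named loci were all family members, miR-4262, hairpins within 100 kb, and the 5 names nearest to miR-181a-5p. The members, lists and tests were chosen with earlier results of these data known.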

Additional observations from a re-analysis of the deposited data

How the results depend on the processing

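The number of loci called by edgeR was 53, of which 51 were lower. In limma-voom 234 were called, 180 of them higher and 54 lower. The number called was 17 with library totals, 25 with a replicate block and 631 in limma on log2(score + 1). It was 6 to 59 when 1 library was left out: without untreated replicate 1, 2 or 3 only 10 to 12 loci were tested and 6, 6 and 9 called, with no miR-181 locus among those tested, so the family has no value there. Without withaferin A replicate 1, 2 or 3 the same 4 family loci were called lower, beside 12.2%, 13.1% and 12.7% of all loci tested. The family's 4 lower calls became 0 with library totals (3.63% of all loci tested) and 1 with 1 locus per miRNA name (11.9%). They became 2 with a replicate block (7.92%) and 6 in limma on the score, where 95.3% of 660 loci were called lower. With library totals the fitted log2 fold changes that no longer passed were −15.37 for both miR-181a-5p copies and, for miR-181b-5p, −13.99 (chromosome 1) and −14.16 (chromosome 9); with the block they were −13.97 and −14.13 for miR-181b-5p, and with 1 locus per name −14.16. miR-181d-5p turned to 4.48 in limma-voom, where it was called higher (limma-voom adjusted p = 2.4e-13). It passed at −5.02 in limma on the score. In DESeq2 miR-181d-5p was 2.04 and miR-181c-5p 4.83, neither with an adjusted p, and limma on the score called miR-181c-5p lower (−2.39). All of these loci had 0 withaferin A counts. The cause of these shifts was not tested. Whether the library numbers pair the groups could not be told. The correlations of same-numbered deviations were 0.0526, −0.0045 and 0.0772 over 303 loci. Only 26 to 33 loci had a count in a withaferin A library, too few for a pairing to show. The difference in the family's share ran from −1.28 to −0.607 percentage points over its alternatives; with 0 withaferin A counts its sign is fixed and says nothing about stability. The ratio of miR-181a-5p to miR-181b-5p (2.57) ran from 2.29 to 2.92.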

Other observations

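Untreated replicate 2 was the lowest library for both miR-181a-5p and miR-181b-5p, and it lay further below the others for miR-181a-5p. On the log2 CPM scale replicate 2 minus the mean of replicates 1 and 3 was −0.81 for miR-181a-5p at both copies, against −0.17 and −0.18 for miR-181b-5p at chromosomes 1 and 9. The median over the 108 loci with at least 1000 mean untreated counts was −0.04. Of these loci 11 were lower still in replicate 2 than miR-181a-5p, led by miR-34a-5p (−1.57) and both miR-16-5p copies (−1.54 each). These loci were picked for their values, and no test was made.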
